A study of Mus musculus with 12 samples.

Results

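Processed pseudogenes are copies of spliced messenger RNAs that were reverse-transcribed and inserted back into the genome, so they usually lack introns and carry no promoter of their own. Highly expressed genes for ribosomal proteins, glycolysis and the respiratory chain have left many such copies in the mouse genome. Those copies can still be almost identical in sequence to the gene they came from, the parent gene. The YTH domain proteins YTHDF1 to YTHDF3 act in the cytoplasm as readers of N6-methyladenosine, a methylated adenosine found mostly in the last exons of messenger RNAs, commonly within the letters GGACT. The regions described here are the processed pseudogenes listed for the YTHDF1 immunoprecipitation, a list that holds genes with a mean of about 10 or more normalized counts, after leaving out every pseudogene whose symbol starts with Rpl or Rps. Of 1583 processed pseudogenes among 16716 listed genes, 146 carried such a symbol and 1437 remained, all of them present in the table of 55573 counted genes. Of the 1437, 1407 had a mean of at least 10 normalized counts over the 12 libraries and were tested along with all other genes passing that limit, 16820 in all. Since the listing itself required a level, members that were high in 1 group could enter through that group alone.

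Neurons were taken from hippocampi of newborn C57BL/6 mice and grown for 14 days, with the pups of a litter pooled and an inhibitor of dividing cells added to limit glia. RNA immunoprecipitation (RIP) with antibodies against the endogenous YTHDF1, YTHDF2 or YTHDF3 was compared with Input, the total RNA of the same pooled lysate, in 3 biological replicates of each of the 4 groups. All 12 libraries came from cells without a genetic change or stimulus, and a control immunoprecipitation was not analysed here. The 3 comparisons with Input share the same 3 Input libraries. Total counts ran from 6020072 to 38909592 per library, and all 8 neuronal marker genes had counts in every group with a summed level of 2723 to 4199 CPM in Input (counts scaled to a common library size), where the 4 astrocyte markers summed to 245 to 2483 and the 4 microglial ones to 2.24 to 3.85. YTHDF1 RIP replicate 2 stood apart from its 2 companions: the median pseudogene lay at −0.45 on the log2 scale relative to the mean of Input in that library, against −1.37 and −1.09 in the others.

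Every one of the 1437 pseudogenes was compared with the spliced transcripts of protein-coding genes, and 1434 had a match over at least 50% of their length, to 729 different parents. The median identity was 97.6% over the matched bases, and 91 pseudogenes were identical to their parent there. Of 150 pseudogenes whose symbol names a parent, 145 matched that same gene by sequence. This match also showed that the symbol rule removed only part of the ribosomal protein copies: 284 of the 1437, 19.8%, were closest to a ribosomal protein gene although they are named Gm and a number or otherwise. Their shares of counts, calls and medians are given apart below, and the other results hold both kinds. The commonest other parents were Hmgb1, a chromatin protein, with 33 copies, Ppia, the proline isomerase cyclophilin A, with 19, Gapdh, a glycolytic enzyme, with 18, Hnrnpa3, an RNA-binding protein, with 16, Eef1a1, a translation elongation factor, with 15, and the histone gene H3f3a with 14. Among the ribosomal ones Rpl29 had 29 copies and Rps2 had 16. Reads that aligned to several places had been counted for each gene they touched, so the counts of a pseudogene can hold reads of its parent where the sequences do not differ.

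The sequences below show how closely copies and parents resemble one another. They were taken from the GENCODE M21 transcripts of the mouse genome build GRCm38 and are written 5′ to 3′ on the strand of the pseudogene. In the first set each pseudogene is set against its parent, and capitals mark bases that have no equal base in the parent transcript. Gm14287 (chr2:157528869-157528985, − strand, 117 bases, between genes) matches Ywhaz, a 14-3-3 adaptor protein, over all but its first 9 bases. Gm12033 (first 240 of 1002 bases, chr11:20335774-20336013, − strand) and Gm8170 (first 240 of 945 bases, chr10:82020551-82020790, + strand) are both copies of Gapdh, with 0 and 22 marked bases in the stretch shown, and behaved in opposite ways in the YTHDF1 RIP.
Gm14287: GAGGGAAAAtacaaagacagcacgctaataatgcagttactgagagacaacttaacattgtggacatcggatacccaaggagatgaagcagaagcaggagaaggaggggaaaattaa
Gm12033: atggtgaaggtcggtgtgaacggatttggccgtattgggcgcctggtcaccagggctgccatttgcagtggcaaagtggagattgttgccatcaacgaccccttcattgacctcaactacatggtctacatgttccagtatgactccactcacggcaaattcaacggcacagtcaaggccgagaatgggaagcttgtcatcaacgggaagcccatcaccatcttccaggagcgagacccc
Gm8170: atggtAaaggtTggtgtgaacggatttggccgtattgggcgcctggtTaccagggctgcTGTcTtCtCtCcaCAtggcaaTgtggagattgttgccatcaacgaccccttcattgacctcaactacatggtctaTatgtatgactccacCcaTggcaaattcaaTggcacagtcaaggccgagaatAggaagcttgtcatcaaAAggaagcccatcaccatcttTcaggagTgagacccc

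A second set shows 2 of the 3 pseudogenes with no matching protein-coding transcript. Gm12895 (chr4:122455210-122455435, + strand) and Gm12896 (chr4:122122847-122123072, + strand) are each 226 bases long and lie between genes on the same chromosome. They share a run of 224 bases, and capitals mark the 2 end bases that each has beyond it.
Gm12895: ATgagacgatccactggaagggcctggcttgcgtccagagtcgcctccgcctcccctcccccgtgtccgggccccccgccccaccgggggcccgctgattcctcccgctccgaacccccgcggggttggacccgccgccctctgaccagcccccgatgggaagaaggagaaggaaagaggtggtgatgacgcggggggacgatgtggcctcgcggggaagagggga
Gm12896: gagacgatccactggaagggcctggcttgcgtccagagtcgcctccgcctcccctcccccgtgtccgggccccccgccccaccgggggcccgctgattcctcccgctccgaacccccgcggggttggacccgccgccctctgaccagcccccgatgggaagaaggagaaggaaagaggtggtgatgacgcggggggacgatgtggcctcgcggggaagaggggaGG

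Processed pseudogenes took a larger share of the counts in Input than in any RIP. They held 2.58%, 2.41% and 3.15% of all counts in the 3 Input libraries, 0.958%, 1.58% and 1.12% with YTHDF1, 1.37%, 1.56% and 1.21% with YTHDF2, and 1.31%, 1.23% and 1.47% with YTHDF3. Each RIP library lay below each Input library. The means were 2.71% ± 0.389 (SD, n = 3) in Input, 1.22% ± 0.325 for YTHDF1, 1.38% ± 0.172 for YTHDF2 and 1.33% ± 0.121 for YTHDF3, and an exact two-sided permutation test gave p = 0.1 for each RIP, the smallest value that 3 against 3 libraries allow. The counting error was small beside this spread, with a 95% Wilson interval of 2.57% to 2.58% for Input replicate 1, and it covers counting alone. Copies with a ribosomal protein parent differed most relative to Input, with means of 0.518% ± 0.126 of the counts in Input against 0.0673% ± 0.0465, 0.127% ± 0.0362 and 0.0568% ± 0.0115 with YTHDF1, with YTHDF2 and with YTHDF3. The other pseudogenes held 2.19% ± 0.278 in Input against 1.15% ± 0.285, 1.252% ± 0.137 and 1.28% ± 0.109.

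**Figure D1:**
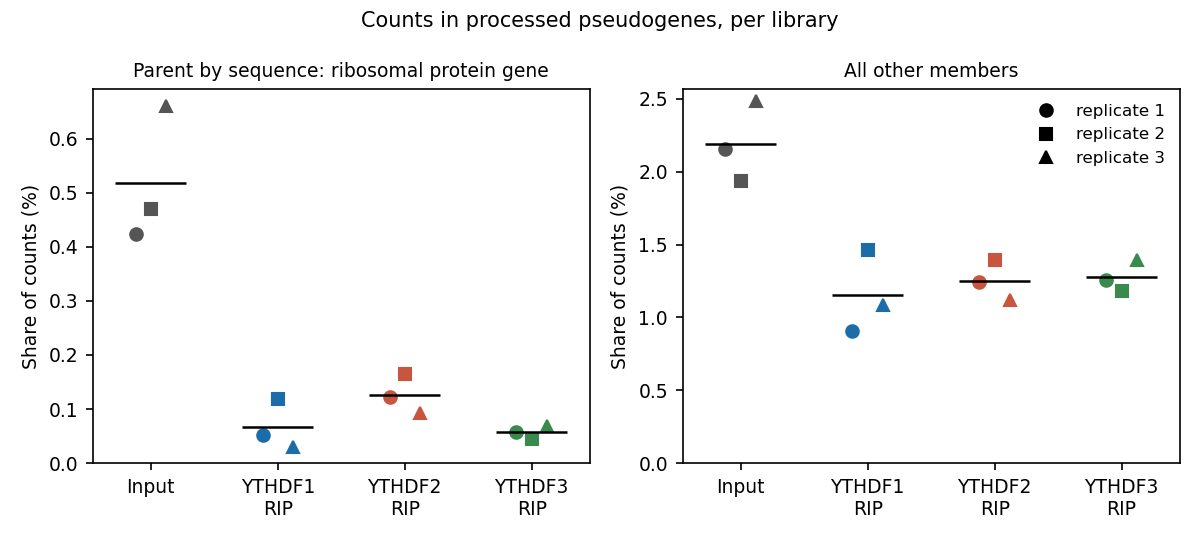
Share of all counts (%) in processed pseudogenes for each of the 12 libraries, by group, with the mean of 3 libraries as a line; the left panel holds pseudogenes whose closest parent is a ribosomal protein gene and the right panel all others. In both panels every Input library lies above every RIP library, and the left means run from 0.518% in Input down to 0.0568% with YTHDF3.

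Region by region, recovery with all 3 proteins was tested with edgeR's quasi-likelihood test over all 16820 genes, and a region was called at an adjusted p of at most 0.05 and a rise of at least 25% or the inverse of that fold. In the YTHDF1 RIP 163 of the 1407 pseudogenes were enriched and 693 depleted, or 11.6% and 49.3%, where 27.5% of all genes tested were enriched and 26.1% depleted. In the YTHDF2 RIP 46 were enriched and 635 depleted, against 16.1% and 19.3% of all genes. In the YTHDF3 RIP 48 were enriched and 787 depleted, against 16.7% and 23.2% of all genes. The median log2 fold change over Input was −0.95, −0.998 and −1.31 for the pseudogenes with YTHDF1, with YTHDF2 and with YTHDF3, and 0.02, 0.02 and 0.05 for all genes. Same-numbered libraries of Input and the YTHDF3 RIP deviated together, and a model of only Input and YTHDF3, blocked by replicate number, gave 131 enriched and 958 depleted pseudogenes, against 69 and 843 without the block. The block also raised the calls over all genes, from 3741 enriched and 4114 depleted to 6144 and 5436.

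These counts depended on transcript length. Log2 fold changes of the pseudogenes rose with their own exonic length, with Spearman's rho of 0.52, 0.49 and 0.53 across 1395 pseudogenes in the 3 RIPs, and with the exonic length of the parent, with rho of 0.55, 0.48 and 0.60. Pseudogenes are not independent of one another, since many share a parent, and the values are descriptive. The 495 pseudogenes of 300 to under 600 bases had medians of −1.98, −1.71 and −2.79, and 360, 315 and 406 of them were depleted. The 305 pseudogenes of 1200 bases and over had medians of 0.18, −0.11 and −0.17, and 40, 44 and 52 were depleted. After a trend on exonic length, fitted across all genes, was removed, 387 pseudogenes were enriched and 320 depleted with YTHDF1, 174 and 294 with YTHDF2, and 268 and 407 with YTHDF3, and the medians were 0.04, −0.14 and −0.10. Over all 16820 genes this setting called 22.2% enriched and 24.7% depleted with YTHDF1, 11.4% and 18.8% with YTHDF2, and 8.76% and 22.8% with YTHDF3, with medians of −0.08, −0.07 and −0.16. Each gene was corrected by its own exonic length, at a median of 655 bases for tested pseudogenes and 3362 for their parents. Across 1395 pairs the median difference, pseudogene minus parent, was 0.99, 0.76 and 1.13 after the removal. Without the removal it was 0.01, −0.05 and −0.10. The values with and without the length trend rest on the same libraries, and recovery by the protein cannot be told apart here from recovery by length.

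**Figure D2:**
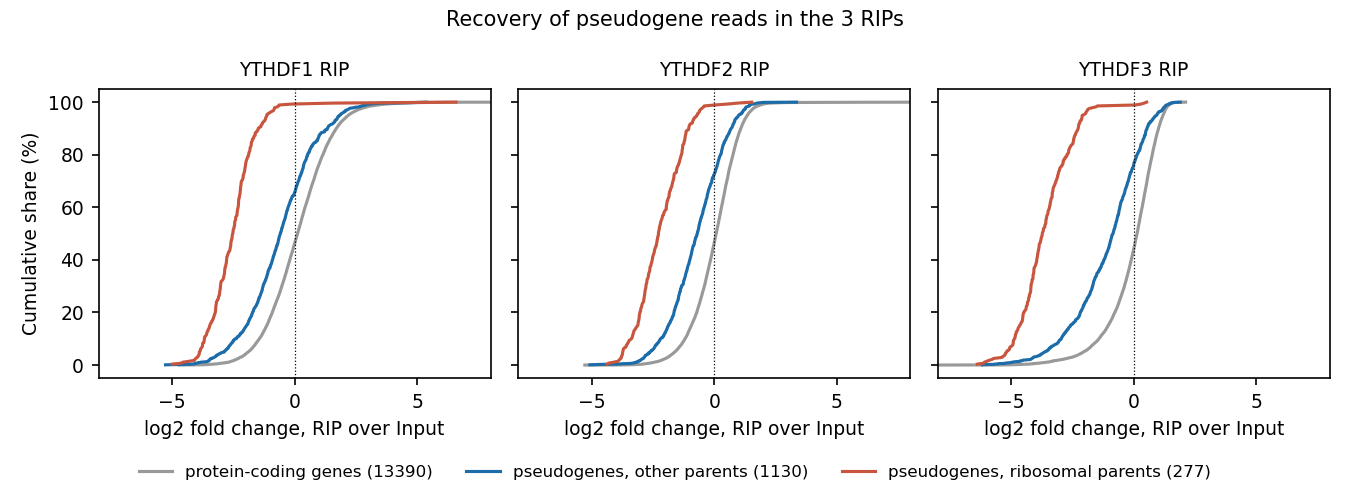
Cumulative share (%) of regions at or below each log2 fold change of RIP over Input, for 13390 protein-coding genes, 277 pseudogenes with a ribosomal protein parent and 1130 other pseudogenes, with 1 panel per RIP. The curves of both kinds of pseudogene lie left of the protein-coding genes, with ribosomal medians of −2.52, −2.27 and −3.73 and other medians of −0.59, −0.69 and −0.84.

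Recovery differed between groups of pseudogenes sorted by the function of the parent, and length was not held equal between these groups. Of the 277 tested copies of ribosomal protein genes, 246, 212 and 272 were depleted with YTHDF1, with YTHDF2 and with YTHDF3, and 2, 0 and 0 were enriched. Of the 1130 others 447, 423 and 515 were depleted and 161, 46 and 48 enriched. Their depleted shares were 39.6%, 37.4% and 45.6%, where 26.1%, 19.3% and 23.2% of all genes were depleted. Copies of respiratory chain and ATP synthase genes, which encode small subunits of the mitochondrial inner membrane complexes, behaved alike in count: 31, 30 and 31 of 32 were depleted, none was enriched, and the medians were −2.94, −2.69 and −3.86. Among 41 copies of translation factors 27, 30 and 35 were depleted and 1, 0 and 0 enriched. Among 47 copies of proteasome and ubiquitin genes 30, 30 and 34 were depleted and 3, 0 and 0 enriched. With the length trend removed, the 277 copies of ribosomal protein genes had medians of −1.38, −1.18 and −2.11. The 1118 other pseudogenes with a tested parent then had medians of 0.41, 0.05 and 0.25.

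Other families were mixed. Of 69 copies of RNA-binding protein genes 11, 9 and 12 were depleted, or 15.9%, 13.0% and 17.4%, where 26.1%, 19.3% and 23.2% of all genes were, and 5, 3 and 3 were enriched, with medians of 0.14, 0.16 and −0.30. Of 50 copies of chaperone genes 22, 23 and 22 were depleted, or 44.0%, 46.0% and 44.0%, and 10, 0 and 1 enriched. Of 65 copies of high-mobility-group and histone genes 25, 32 and 27 were depleted, or 38.5%, 49.2% and 41.5%. None of them was enriched, and the medians were −0.80, −1.05 and −1.01. Of 34 copies of glycolytic genes 10, 13 and 24 were depleted, or 29.4%, 38.2% and 70.6%, and 7, 0 and 0 enriched. With YTHDF1 the depleted share was near that of all genes, and the enriched share of 20.6% was under the 27.5% of all genes. The 17 tested copies of Gapdh, which can share reads, held 9 of these 10 depleted and 4 of these 7 enriched copies. Of 30 copies of actin, tubulin and other cytoskeletal genes 12, 16 and 23 were depleted, or 40.0%, 53.3% and 76.7%, and 1, 0 and 1 enriched. The remaining 759 copies of genes outside these lists held 133 of the 163 enriched regions with YTHDF1, 43 of 46 with YTHDF2 and 43 of 48 with YTHDF3. These are 17.5%, 5.67% and 5.67% of the 759, where 27.5%, 16.1% and 16.7% of all genes were enriched.

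Copies of 1 parent clustered around the value of that parent. All 27 tested copies of Rpl29 were depleted in each RIP, with medians of −3.34, −2.78 and −4.11 where Rpl29 itself had −3.27 ± 0.44 (SE), −2.72 ± 0.43 and −4.03 ± 0.45. All 19 copies of Ppia were depleted in each RIP, with medians of −2.65, −2.39 and −3.06 beside −2.47 ± 0.33, −2.24 ± 0.32 and −2.87 ± 0.33 for Ppia. The 14 copies of H3f3a, which encodes the replacement histone H3.3, were depleted in each RIP as well, with medians of −3.46, −2.89 and −3.51. None of the 10 tested copies of Phgdh, an enzyme of serine synthesis, was called in any RIP, with medians of −0.54, −0.26 and −0.88. Phgdh itself had −0.61 ± 0.52, −0.29 ± 0.52 and −0.92 ± 0.53, without a call. Of the 31 copies of Hmgb1 3, 16 and 4 were depleted, and medians of −0.51, −0.95 and −0.77 stood beside −0.28 ± 0.35, −0.79 ± 0.35 and −0.69 ± 0.35 for Hmgb1. The 16 copies of Hnrnpa3 had medians of 0.48, 0.83 and −0.27, with 1 call, an enrichment with YTHDF2.

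**Figure D3:**
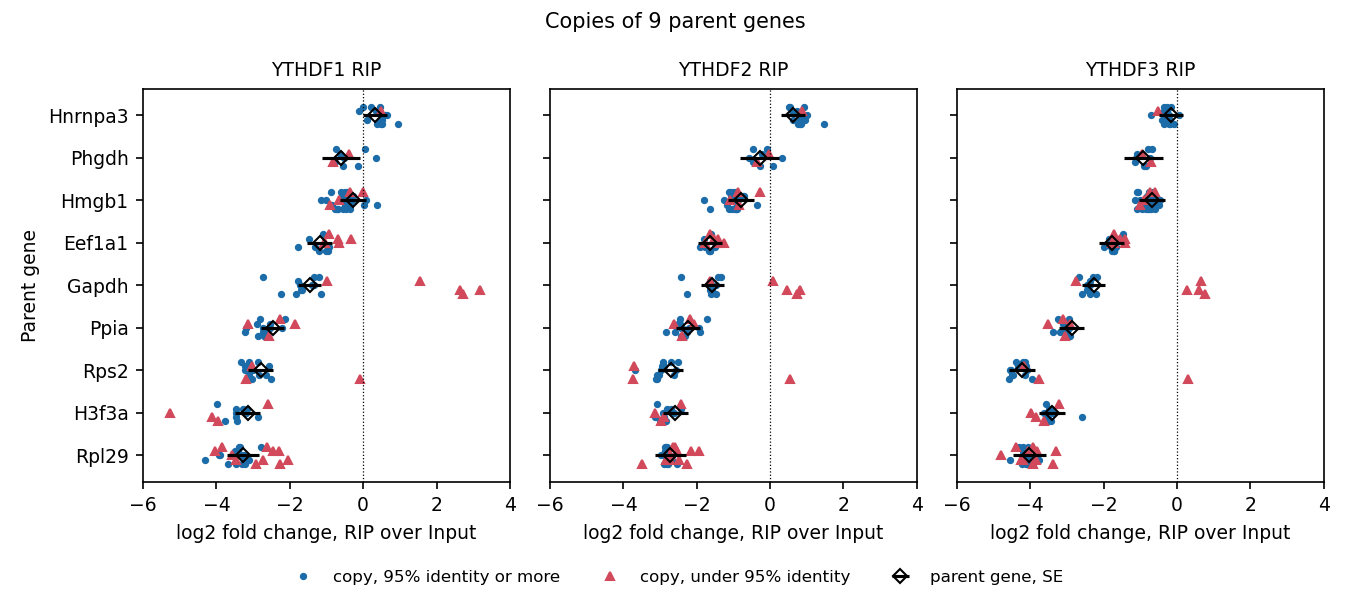
Log2 fold change of RIP over Input for the tested copies of 9 parent genes, with 1 panel per RIP; filled circles are copies with 95% identity or more to the parent, triangles are copies under 95%, and the open diamond with its bar is the parent gene with its SE. Most copies lie near the diamond, and 4 diverged copies of Gapdh lie to the right of it in the YTHDF1 panel, up to 3.18.

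Over all 1395 pairs of a tested pseudogene and a tested parent, Pearson's r of the log2 fold changes was 0.91, 0.92 and 0.95 and Spearman's rho 0.94, 0.92 and 0.95 in the 3 RIPs. The pairs share reads and libraries and involve 714 parents, so these values describe the counts only. The median difference, pseudogene minus parent, was 0.01, −0.05 and −0.10, and 79, 61 and 70 pairs, 5.66%, 4.37% and 5.02%, differed by more than 1 on the log2 scale. Of the 160 pseudogenes enriched with YTHDF1 that had a tested parent, 130 had an enriched parent, 8 a depleted one and 22 a parent without a call. Of the 688 depleted ones, 664 had a depleted parent and 1 an enriched one. In the YTHDF2 RIP 39 of 46 enriched and 592 of 633 depleted pseudogenes had a parent with the same call, and in the YTHDF3 RIP these were 42 of 48 and 754 of 782. At the median, a pseudogene held 8.72% of the counts of its parent over the 12 libraries, or 44.4% per kilobase of exon, and 8 had more counts than the parent.

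The likeness to the parent was weakest where the sequences had diverged. Among 392 pairs with an identity of 99% or more rho was 0.98, 0.97 and 0.98, and 2.3%, 1.28% and 3.32% differed by more than 1. Among 94 pairs under 92% rho was 0.58, 0.48 and 0.60, and 35.1%, 22.3% and 23.4% differed by more than 1. The 97 tested pseudogenes under 92% also had medians near 0, at 0.17, −0.15 and 0.05. With YTHDF1 32 of them were enriched and 14 depleted, or 33.0% and 14.4%, against 27.5% and 26.1% of all genes. Some of the 32 passed the limit on the mean count through the YTHDF1 libraries in which they were high, so their number is a description. In the YTHDF2 RIP 3 were enriched and 13 depleted, or 3.09% and 13.4%, against 16.1% and 19.3% of all genes. In the YTHDF3 RIP 7 were enriched and 22 depleted, or 7.22% and 22.7%, against 16.7% and 23.2% of all genes. How far shared reads account for the values of the near-identical copies was not tested.

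**Figure D4:**
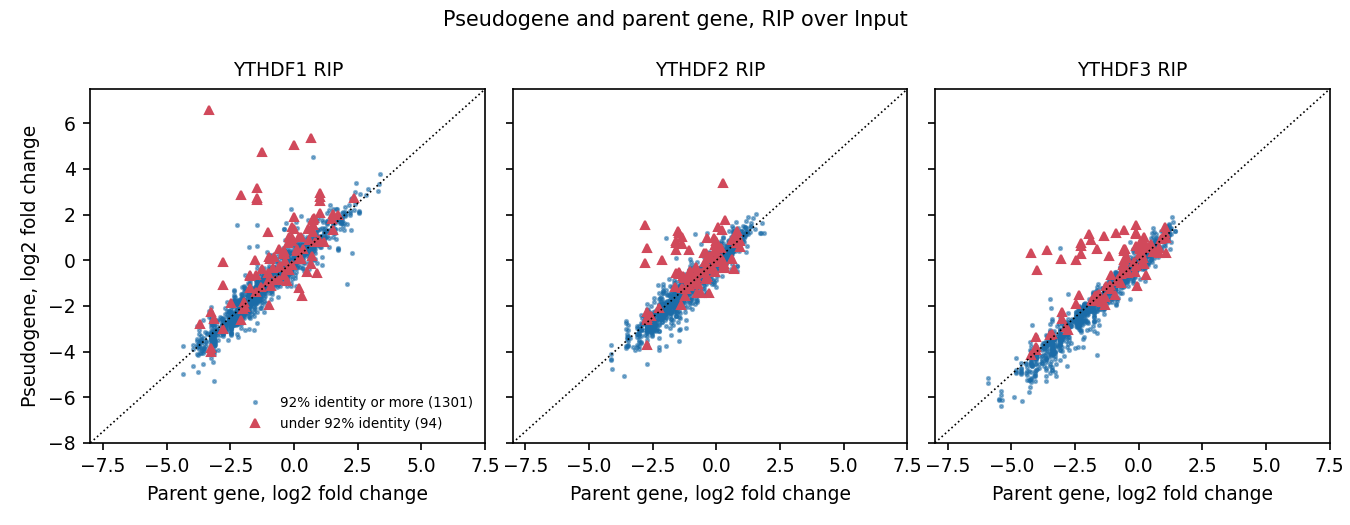
Log2 fold change of RIP over Input for 1395 pseudogenes against that of the parent gene, with 1 panel per RIP and the line of equality dotted; triangles are the 94 pseudogenes with under 92% identity. Most points follow the line, and the triangles lie off it more often, mostly above.

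The copies of Gapdh show this within 1 family, which was chosen for description after its values were seen. The 12 tested copies with an identity of 95% or more had log2 fold changes from −2.73 to −1.16 with YTHDF1, of which 9 were depleted, and Gapdh itself had −1.46 ± 0.31. The 5 copies under 95% ranged from −0.996 to 3.18, and 4 of them were called enriched. Gm12033, with 99.9% identity, had 45.0, 37.2 and 33.7 CPM in Input against 6.24, 14.1 and 15.4 with YTHDF1. Gm8170, with 86.6% identity, had 0.838, 0.66 and 0.751 CPM in Input against 6.24, 11.2 and 3.1 with YTHDF1, a log2 fold change of 3.18 ± 0.52. With 11, 9 and 7 counts in Input and 54, 158 and 86 with YTHDF1, it passed the limit on the mean count through the libraries in which it was high, and this value is a description. The Input and YTHDF1 libraries of Gm8170 did not overlap, while its YTHDF2 value of 0.82 ± 0.56 and its YTHDF3 value of 0.28 ± 0.52 were not called. Gm5173 and Gm8153, with 87.7% and 87.6% identity, had 2.65 ± 0.50 and 2.73 ± 0.53 with YTHDF1 and lie on chromosome 10 as Gm8170 does, but had nearly equal counts in all libraries and were taken as 1 measurement.

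Some diverged pseudogenes of low level in Input were high with YTHDF1, and these too were picked out after the values were seen. They passed the limit on the mean count through the YTHDF1 libraries, so their values are given with no test. Gm45791 (chr8:72795136-72795487, − strand, 78.5% identity to Rps12) had 4, 3 and 0 counts in Input, 136, 283 and 580 with YTHDF1, 3, 5 and 5 with YTHDF2, and 10, 9 and 2 with YTHDF3. Its log2 fold change with YTHDF1 was 6.58 ± 0.62 and rests on 7 Input counts in all. Rps12, which encodes a small-subunit ribosomal protein, had −3.36 ± 0.57. Gm7754 had 2, 3 and 0 counts in Input against 46, 74 and 198 with YTHDF1, and Gm18529 had 3, 0 and 1 against 22, 64 and 131. Gm20162 had 5, 2 and 2 against 65, 126 and 123, and Gm8173 had 4, 4 and 0 against 31, 103 and 117. Their identities were 82.9%, 70.1%, 83.3% and 93.1% to Naa35, Rad18, Mrpl15 and Ddx18.

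Among pseudogenes with at least 100 normalized counts, the highest enrichment in the YTHDF1 and YTHDF2 RIPs was that of Gm47184 (chr12:83505082-83505579, + strand, 498 bases), a copy of part of the coding sequence of Kmt2d, a histone H3 lysine methyltransferase. It had 3.89, 3.67 and 3.65 CPM in Input, 61.8, 35.0 and 57.1 with YTHDF1, 17.7, 10.6 and 16.6 with YTHDF2, and 10.02, 14.0 and 11.2 with YTHDF3. Every RIP library lay above every Input library, with log2 fold changes of 3.78 ± 0.28, 2.003 ± 0.27 and 1.65 ± 0.27. Kmt2d had 3.36 ± 0.25, 1.55 ± 0.23 and 1.36 ± 0.23.

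Further enriched regions with at least 100 normalized counts were copies of coding sequence as well. With YTHDF1 they were Gm7895 at 3.11 ± 0.19, a copy of the phosphatase gene Ppm1b, Gm17538 at 3.05 ± 0.29, a copy of the deubiquitinase gene Usp9x, and Gm15057 at 2.85 ± 0.31, a copy of the kinase anchor gene Akap11. With YTHDF2 they were Gm9523 at 1.83 ± 0.41, a copy of Mat2a, which makes the methyl donor S-adenosylmethionine and of which the matched part also reached beyond the coding sequence, Gm12966 at 1.65 ± 0.17, a copy of the splicing regulator gene Srsf5, and Gm336 at 1.44 ± 0.31, a copy of Arap2. With YTHDF3 they were Gm44911 at 1.42 ± 0.22, Gm20796 at 1.32 ± 0.41 and Gm16581 at 1.30 ± 0.21, copies of Cplane1, Prr14l and the splicing gene Srrm2. Gm7895 was the most uneven of them across RIPs, with 13.4, 13.4 and 10.1 CPM in Input, 96.3, 116 and 107 with YTHDF1, 34.8, 24.8 and 28.1 with YTHDF2, and 14.8, 15.4 and 14.4 with YTHDF3. Its YTHDF3 value of 0.27 ± 0.18 was not called. Ppm1b itself had 2.884, 1.197 and 0.2452 with YTHDF1, YTHDF2 and YTHDF3. Among the other parents, Usp9x had 3.288 and Akap11 2.802 with YTHDF1. Mat2a, Srsf5 and Arap2 had 1.437, 1.803 and 1.299 with YTHDF2. Cplane1, Prr14l and Srrm2 had 1.253, 1.162 and 1.436 with YTHDF3. Identity to the parent was 92.34% to 99.91% in these copies, so their counts can hold reads of the parents. How far shared reads account for these values was not tested. Being listed for 1 RIP does not make a region particular to it. With YTHDF1 Gm20796 had 2.67 ± 0.42, Gm16581 1.87 ± 0.22 and Gm9523 2.22 ± 0.41. Gm44911 and Gm336 were enriched in all 3 RIPs and not called between them, while Gm12966 had 0.64 ± 0.17 with YTHDF1 and 0.49 ± 0.17 with YTHDF3. The YTHDF3 call of Gm20796 was lost without any 1 of 4 libraries.

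The most depleted regions were copies of ribosomal, respiratory chain and histone genes. Gm8730 (chr8:102864845-102865798, − strand), a copy of Rplp0, the ribosomal stalk protein, had 108, 110 and 104 CPM in Input, 4.86, 10.4 and 3.71 with YTHDF1, 6.25, 7.92 and 9.88 with YTHDF2, and 4.85, 2.52 and 3.21 with YTHDF3. The values −4.09 ± 0.39, −3.74 ± 0.39 and −4.93 ± 0.40 stood beside −3.81 ± 0.39, −3.53 ± 0.39 and −4.83 ± 0.41 for Rplp0. With YTHDF1 it was followed by Ndufb4c at −4.08 ± 0.43 and Cox6c2 at −3.96 ± 0.49, copies of subunits of respiratory complexes, Gm10243 at −3.98 ± 0.44, a copy of Rpl35a, and Gm6749 at −3.98 ± 0.36, a copy of H3f3a. With YTHDF2 the lowest was Gm14303, a copy of the small-subunit ribosomal protein gene Rps29, at −3.77 ± 0.49, with Gm10689 at −3.73 ± 0.51 and Gm14633 at −3.55 ± 0.49, both copies of Rps23, close by. With YTHDF3 Gm14303 was again lowest, at −5.72 ± 0.52, falling from 34.2, 37.6 and 50.7 CPM in Input to 0.932, 0.852 and 0.529. Rps29 itself had −5.40 ± 0.51. Atp5l2-ps, a copy of the ATP synthase gene Atp5l, had −5.27 ± 0.41 with YTHDF3, where Atp5l had −4.09 ± 0.32.

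Gm12895, Gm12896 and Gm11407 were the other low regions with YTHDF3. Gm12895 had 115, 114 and 63.9 CPM in Input, 14.9, 10.6 and 1.59 with YTHDF1, 129, 190 and 196 with YTHDF2, and 2.99, 1.55 and 1.19 with YTHDF3. The YTHDF2 libraries lay above all Input libraries and the libraries of the other RIPs far below them. The log2 fold changes were −3.47 ± 0.65 with YTHDF1 and −5.67 ± 0.72 with YTHDF3, both calls, and 0.81 ± 0.58 with YTHDF2, with an adjusted p of 0.3. Gm12896, which shares 224 bases with it, had nearly equal counts in every library and is no second measurement. Gm11407 (chr4:80002331-80003388, + strand) matched mt-Nd5, a mitochondrially encoded subunit of respiratory complex I, at 92.3% identity. It had 35.6, 39.6 and 24.8 CPM in Input, 1.97, 4.48 and 0.649 with YTHDF1, 18.3, 5.53 and 8.30 with YTHDF2, and 1.05, 0.555 and 0.529 with YTHDF3, with log2 fold changes of −3.85 ± 0.64, −1.64 ± 0.57 and −5.54 ± 0.69. Gm4076, the other pseudogene that matched mt-Nd5, had −3.24 ± 0.66, −1.38 ± 0.61 and −5.20 ± 0.73, of which the YTHDF2 value was not called, and the YTHDF2 call of Gm11407 was lost without any 1 of 7 libraries. All genes named mt- were listed at 0 counts in all 12 libraries, so the parent itself gave no value.

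**Figure D5:**
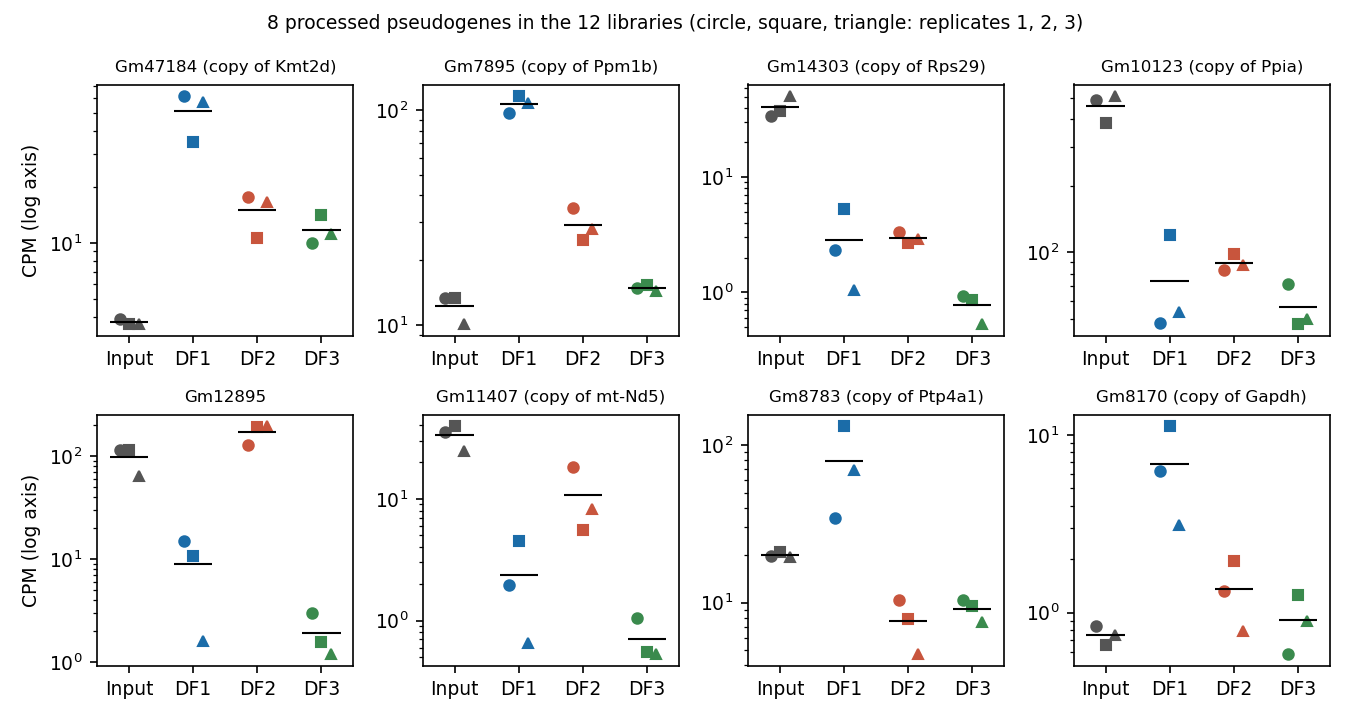
CPM on a log axis for 8 processed pseudogenes in the 12 libraries, grouped as Input and the YTHDF1, YTHDF2 and YTHDF3 RIPs (DF1 to DF3), with replicates 1, 2 and 3 as circle, square and triangle and the group mean as a line. Gm47184 and Gm7895 are highest in the YTHDF1 RIP, Gm14303 and Gm10123 in Input, and Gm12895 with YTHDF2.

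By CPM per kilobase of exon, the highest pseudogenes in Input had 98.7% to 100% identity, so their counts can hold reads of the parents. They were Gm10123, a copy of Ppia, at 941 ± 136 CPM per kilobase (SD, n = 3), Gm12715, of the actin gene Actg1, at 872 ± 162, Gm4202, of Ywhaz, at 726 ± 94.2, and Gm17383, of the tubulin gene Tuba1b, at 636 ± 194. Gm14287, also of Ywhaz, followed at 548 ± 127, Gm13493, of Ppia, at 514 ± 77.4, Gm11223, of the microtubule regulator gene Stmn1, at 460 ± 177, and Gm3788, of Tmsb10, an actin-binding peptide, at 459 ± 208. Neighbours in this order lay within their spread of one another. Gm10123 was depleted in all RIPs, at −2.65 ± 0.34, −2.37 ± 0.33 and −3.03 ± 0.34, and so was Gm12715, at −0.99 ± 0.27, −1.59 ± 0.28 and −1.36 ± 0.28. An exon of Gm12715 overlaps that of Gm22801 on the same strand, and reads there were counted for both. The 2 copies of Ywhaz were depleted with YTHDF2, at −1.65 ± 0.40 and −1.75 ± 0.39, and with YTHDF3, at −1.08 ± 0.39 and −1.15 ± 0.38, and had −0.15 ± 0.39 and 0.11 ± 0.37 with YTHDF1, which was not called. The YTHDF3 call of Gm4202 was lost without any 1 of 10 libraries and that of Gm14287 without any 1 of 4.

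The most counted pseudogenes whose symbols name their parent were moderate in comparison. Ap2m1-ps, a copy of the clathrin adaptor gene Ap2m1, had −1.32 ± 0.28, −1.57 ± 0.29 and −1.68 ± 0.29, and Atp6v0c-ps2, a copy of a proton pump subunit gene, −1.48 ± 0.26, −1.45 ± 0.26 and −1.93 ± 0.26. Morf4l1-ps1, Pgam1-ps2 and Actr3-ps, copies of a chromatin, a glycolytic and an actin-nucleation gene, were depleted in all RIPs by values between −0.68 and −0.97. Apart from that of Actr3-ps with YTHDF3, each of these calls was lost without some library: that of Morf4l1-ps1 with YTHDF1 without any 1 of 7, and those of Pgam1-ps2 without any 1 of 4, 3 and 3. With the length trend removed, Morf4l1-ps1 had 0.19 with YTHDF1 and 0.11 with YTHDF3, and Pgam1-ps2 had 0.44 and 0.39. Tubb2a-ps2 was depleted with YTHDF2 alone, at −0.91 ± 0.22, and by sequence was closer to Tubb2b than to Tubb2a. The difference between its RIPs was tested directly, and at 0.81 ± 0.22 between YTHDF1 and YTHDF2 it did not reach 2-fold.

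Between RIPs, a call required a difference of at least 2-fold and an adjusted p of at most 0.05. Against the YTHDF2 RIP, 117 pseudogenes were higher and 23 lower in the YTHDF1 RIP, where 11.4% of all genes were higher and 6.13% lower. Against the YTHDF3 RIP, 195 were higher and 7 lower in the YTHDF1 RIP, where 11.0% and 3.62% of all genes were. Between YTHDF2 and YTHDF3, 100 were higher in the former and 5 in the latter, against 3.97% and 1.17% of all genes. These counts hung on YTHDF1 RIP replicate 2: without it they were 86 and 219, 73 and 28, and 218 and 10. They also hung on YTHDF3 RIP replicate 2, without which 72 and 4 were called between YTHDF1 and YTHDF3 and 7 and 3 between YTHDF2 and YTHDF3. With the replicate block 55 were higher with YTHDF2 than with YTHDF3, and with the length trend removed 45 were higher and 24 lower. Under scaling by library size alone the split was 62 and 146, 38 and 105, and 70 and 25, with the median of all genes shifted by −0.38 with YTHDF1 and 0.38 with YTHDF3 against Input.

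Copies of a ribosomal parent, 277 of the 1407 tested, made up 49 of the 195 that were higher with YTHDF1 than with YTHDF3. They made up 43 of the 100 that were higher with YTHDF2 than with YTHDF3, and 1 of the 117 that were higher with YTHDF1 than with YTHDF2. These are 17.7%, 15.5% and 0.361% of the 277, where 11.0%, 3.97% and 11.4% of all genes were higher. Among the 117, the leading parents were Cdv3 and the chromatin remodeller gene Smarca5 with 5 copies each and Gapdh, Hsp90ab1 and Ptp4a1 with 4 each. Of the 97 pseudogenes under 92% identity, 26 were higher and 5 lower with YTHDF1 than with YTHDF2. These are 26.8% and 5.15%, against 11.4% and 6.13% of all genes. Some of the 97 passed the limit on the mean count through the YTHDF1 libraries in which they were high, so these counts are a description.

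The 3 regions highest with YTHDF1 relative to each other RIP were copies of Ptp4a1, a tyrosine phosphatase gene. This ranking held regions with at least 100 normalized counts and no overlap of libraries. Most of the matched part was assigned to the 3′ untranslated region of the best-matching transcript, and none to its coding sequence. The next best match was a second gene entry also named Ptp4a1. Whether the copies match coding sequence of that entry was not determined. Gm8783 (chr19:40622460-40622981, + strand, inside the span of Entpd1) had 19.8, 20.9 and 19.4 CPM in Input, 34.7, 132 and 69.3 with YTHDF1, 10.4, 7.92 and 4.71 with YTHDF2, and 10.4, 9.55 and 7.54 with YTHDF3. All YTHDF1 libraries lay above and all other RIP libraries below Input. The differences were 3.37 ± 0.44 on the log2 scale between YTHDF1 and YTHDF2 and 3.11 ± 0.43 between YTHDF1 and YTHDF3. Gm15801, at 3.36 ± 0.44 and 3.09 ± 0.42, had nearly equal counts, and Gm13363 had 3.41 ± 0.48 and 3.06 ± 0.46. Without YTHDF2 RIP replicate 2 or 3, or without Input replicate 2, the YTHDF2 depletion of all 3 copies was no longer called, and the YTHDF3 calls of Gm8783 and Gm15801 were lost without any 1 of 8 and of 7 libraries, all 3 of Input and all 3 of YTHDF3 included. With the length trend removed both had 0.54 with YTHDF3. Ptp4a1 itself had 1.98 ± 0.37 with YTHDF1, −1.39 ± 0.37 with YTHDF2 and −1.08 ± 0.36 with YTHDF3.

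In the opposite direction Gm12895, Gm12896 and Gm11407 were lower with YTHDF1 than with YTHDF2, by −4.28 ± 0.67, −4.29 ± 0.66 and −2.22 ± 0.62, and higher with YTHDF2 than with YTHDF3, by 6.49 ± 0.74, 6.51 ± 0.74 and 3.91 ± 0.66. Gm9517, a copy of the ankyrin repeat gene Ankrd12, was the 1 region of at least 100 normalized counts that was lower with YTHDF2 than with YTHDF3 without overlap of libraries, by −1.05 ± 0.20. The call was lost without YTHDF2 RIP replicate 2 or YTHDF3 RIP replicate 1. It had 14.9, 10.6 and 12.3 CPM with YTHDF2 against 31.6, 22.5 and 24.3 with YTHDF3.

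The regions shared further features that did not enter their choice. A total of 1371 of the 1437 had 1 exon, and lengths ran from 69 to 6514 bases with a median of 654. By position 920 lay between genes, 288 overlapped a gene on the other strand only, 197 lay inside the span of a gene on the same strand, and 32 shared exon bases with one. With YTHDF1, 111 of 903 tested regions between genes were enriched and 433 depleted, and of 192 inside a gene on the same strand these were 28 and 83. Of 281 that overlapped a gene on the other strand only, 23 were enriched and 161 depleted, and of 31 that shared exon bases 1 was enriched and 16 depleted. The enriched shares were 12.3%, 14.6%, 8.19% and 3.23% in this order, where 27.5% of all genes were enriched. The depleted shares were 48.0%, 43.2%, 57.3% and 51.6%, where 26.1% of all genes were depleted. The difference between the classes was not tested. The letters GGACT, searched on the strand of the pseudogene, occurred in 671 of the 1407, or 47.7%, at 0.885 per kilobase. They were in 63.8% of those enriched with YTHDF1 and 39.5% of those depleted, whose median lengths were 1250 and 495 bases, and per kilobase the values were 0.915 and 0.83. With YTHDF2 they were 1.06 and 0.815 and with YTHDF3 0.964 and 0.837 per kilobase. A total of 73 pseudogenes with at least 120 counts in all fell into 29 sets with counts that differed by at most 5% or 5 counts in each library. Of these sets 18 had 1 parent or none, among them the pairs Gm15801 with Gm8783 and Gm12895 with Gm12896. The other 11, with several parents, had a set mean of at most 224 counts per pseudogene over all libraries.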

How the data were processed

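The authors' count table gives, per the file headers, whole-number counts per gene and library from featureCounts (2.0.1), made after UMI deduplication (UMI-tools 1.1.1), trimming (cutadapt 3.4) and alignment (STAR 2.7.7a) to mm10, with Ensembl 97 genes, by strand, and with reads counted for every overlapping gene and every alignment. From the deposited YTHDF1 table only the biotypes, names and mean normalized counts (a signal over several libraries) were used. Its fold changes and p-values, and the YTHDF2 and YTHDF3 tables, were not used. Members and lists were chosen with earlier results of these data known.

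Genes with a mean of at least 10 normalized counts (16820) entered edgeR 4.0.16 (quasi-likelihood, TMM, 4 groups in 1 model, Benjamini-Hochberg adjustment), checked on simulated data. CPM are scaled by TMM. The common biological coefficient of variation was 0.322. Replicates were separate cultures. Each lysate was split among the RIPs, but whether a replicate number marks a shared lysate is not given in the sources used here, and deviations of same-numbered YTHDF3 and YTHDF1 or YTHDF2 libraries correlated at −0.355 to 0.175. Deviations of same-numbered Input and YTHDF3 libraries correlated at 0.835, 0.539 and 0.812, so these were taken as paired in a fit of 2 groups alone. The main model held no replicate block, so the calls and errors given for it ignore this pairing. Same-numbered YTHDF1 and YTHDF2 libraries correlated at 0.070, 0.553 and 0.361, and their comparison in the main model was not blocked either. Same-numbered libraries of Input and YTHDF1 or YTHDF2 correlated at −0.329 to 0.186. With libraries of another number, Input replicate 3 reached 0.471 with YTHDF1 and 0.568 with YTHDF2. Pairing under other numbers was not tested, and every replicate block followed the numbers. Parents were found with blastn 2.17.0 (plus strand, e-value 1e-05) against all GENCODE M21 protein-coding transcripts. Named members were, for each RIP against Input, the 5 highest and 5 lowest called with at least 100 normalized counts and no overlap of libraries (3 each between RIPs), the 8 highest per kilobase in Input and the 6 most counted with a parent in their symbol. 1 region that this rule names is not reported here. Others are said to be chosen after their values were seen. Alternatives were DESeq2 1.42.0, other scalings, filters, a replicate block, removal of a length trend (loess span 0.3), regions sharing no exon, leaving out each library and, chosen after seeing the data, fits of 2 groups alone.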

Additional observations from a re-analysis of the deposited data

Results flagged for a closer look

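5 pseudogenes had calls of opposite sign against Input in 2 RIPs together with a direct call between these RIPs, by the edgeR test. Between YTHDF1 and YTHDF2 the log2 differences were 3.41 for Gm13363, 3.37 for Gm8783 and 3.36 for Gm15801, the copies of Ptp4a1, and 2.49 for Gm13238 and 2.53 for Gm13241, copies of Cdv3 with 87.5% and 88.4% identity. Between YTHDF1 and YTHDF3 they were 3.11 for Gm8783 and 3.09 for Gm15801. Between YTHDF2 and YTHDF3 the difference for Gm13238 was −1.47. Gm13238 had 3.20, 3.37 and 3.54 CPM in Input, 11.1, 13.7 and 9.77 with YTHDF1, 1.99, 2.09 and 2.02 with YTHDF2, and 6.17, 5.26 and 5.52 with YTHDF3, with no overlap between any 2 groups, and Cdv3 itself had 0.76 ± 0.19, −0.36 ± 0.19 and 0.05 ± 0.19 against Input. Gm8783 and Gm15801 are nearly equal in counts and are 1 measurement. Most of the matched sequence of the 5 was assigned to the 3′ untranslated region of the best-matching parent transcript. For the copies of Ptp4a1 the next best match was a second gene entry of that name. Whether they match its coding sequence was not determined.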

How the results depend on the processing

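Leaving out 1 library at a time gave 131 to 175 enriched and 585 to 829 depleted pseudogenes with YTHDF1 (median −1.38 to −0.77), 29 to 57 and 479 to 741 with YTHDF2 (−1.06 to −0.91), and 31 to 64 and 681 to 829 with YTHDF3 (−1.42 to −1.22), and differences in the share of counts of −1.67 to −1.27, −1.48 to −1.11 and −1.53 to −1.16 percentage points. Enriched counts fell by over 1.5 times without YTHDF2 RIP replicate 1 (29) or Input replicate 1 or 2 (30 each) with YTHDF2, and without Input replicate 2 (31) with YTHDF3. Between RIPs the ranges were 86 to 150 higher and 12 to 219 lower (YTHDF1 and YTHDF2), 72 to 255 and 4 to 28 (YTHDF1 and YTHDF3), and 7 to 218 and 3 to 10 (YTHDF2 and YTHDF3). Counts between RIPs also moved that far without YTHDF1 RIP replicate 3 (165 and 8 between YTHDF2 and YTHDF3), YTHDF3 RIP replicate 1 (35) or 3 (21), YTHDF2 RIP replicate 1, 2 or 3 (27, 20 and 36) and Input replicate 2 (47), counting those higher with YTHDF2 than with YTHDF3. Of 118 called results of named pseudogenes, 28 lost the call without some library and 0 changed direction.

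With the length trend removed, enriched and depleted counts and medians were 387, 320 and 0.038 with YTHDF1, 174, 294 and −0.14 with YTHDF2, and 268, 407 and −0.10 with YTHDF3, and with the replicate block added 371, 314 and 0.030, then 162, 281 and −0.15, then 255, 393 and −0.10. Between YTHDF1 and YTHDF3 23 were then lower (121 higher and 19 lower with the block), and between YTHDF2 and YTHDF3 45 were higher and 24 lower (26 and 20). The direction of named pseudogenes changed under this setting, without and with the block, for Gm8783 (0.54 and 0.54), Gm15801 (0.54 and 0.53), Gm4202 (0.28 and 0.28), Gm14287 (0.53 and 0.53), Gm11223 (0.039 and 0.019), Morf4l1-ps1 (0.11 and 0.11) and Pgam1-ps2 (0.39 and 0.40) with YTHDF3, and for Tubb2a-ps2 (0.58 and 0.58), Morf4l1-ps1 (0.19 and 0.19), Pgam1-ps2 (0.44 and 0.37) and Gm4202 (0.93, without the block) with YTHDF1. Of the 118 calls 30 were lost, and 31 with the block. This setting corrects a pseudogene by its own length, also where its counts can hold reads of a longer parent.

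A minimum mean of 50, under which fewer genes were tested, gave 85 enriched and 409 depleted with YTHDF1, 388 depleted with YTHDF2, 426 depleted with YTHDF3, and 59 and 82 higher with YTHDF1 than with YTHDF2 and YTHDF3. With no filter 25 were enriched with YTHDF2, the medians were −1.09 with YTHDF2 and −1.17 with YTHDF3, 13 were lower with YTHDF1 than with YTHDF3, and 158 were higher and 12 lower with YTHDF2 than with YTHDF3. Library size alone gave 107 enriched and a median of −0.995 with YTHDF3, and 62 and 146, 38 and 105, and 25 lower in the order of the pairs above. DESeq2 gave 39 lower between YTHDF1 and YTHDF2 and 191 higher between YTHDF2 and YTHDF3. The replicate block in the model of 4 groups gave 55 higher between YTHDF2 and YTHDF3 and lost 1 of the 118 calls, and in models of 2 groups, chosen after seeing the data, 85, 24 and 131 were enriched with YTHDF1, YTHDF2 and YTHDF3. The cause of these changes was not tested. Low counts, such as the 4, 3 and 0 of Gm45791 in Input, limit the precision of single values.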

Other observations

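2 X-linked members annotated as processed pseudogenes, Pabpc1l2a and Pabpc1l2b, carry poly(A)-binding protein names and had only 77.4% and 77.3% identity to Pabpc4, their closest match. Pabpc1l2a had 20.6, 19.6 and 11.8 CPM in Input, 20.8, 16.1 and 25.6 with YTHDF1, 23.0, 15.4 and 29.7 with YTHDF2, and 34.7, 47.6 and 35.3 with YTHDF3. They were enriched with YTHDF3 at 1.17 ± 0.29 and 1.16 ± 0.30 and had 0.26 ± 0.29 and 0.39 ± 0.30 with YTHDF1, which was not called, where Pabpc4 had −0.40 ± 0.24 and −0.09 ± 0.24 with YTHDF1 and YTHDF3. Both were chosen after their values were seen.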
